A study of Mus musculus with 18 samples.

Results

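The regions described here carried an H3K27ac peak in bone marrow-derived macrophages (BMDM) of dystrophic mdx mice and none in WT BMDM. H3K27ac peaks of WT, mdx and mdxTLR4-/- BMDM that overlapped by at least 1 bp on chromosomes 1 to 19 were merged, which gave 21525 regions. The 3630 regions that an mdx peak touched and no WT peak touched are called gained, and they made up 16.9% of all regions. Of these, 595 also had an mdxTLR4-/- peak and 3035 did not. The mirror class, with a WT peak and no mdx peak, held 7001 regions or 32.5% of all, so that 0.518 regions were gained for each region lost. Lists of equal length (11581 peaks each) gave 0.990, a value near 1 that equal length brings about by construction. The gained regions were chosen on the presence and absence of peaks, so their H3K27ac values are a description and were not tested.

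BMDM are macrophages grown from marrow, here for 7 days with L929 supernatant, and they were left untreated. All mice were male. By the labels the WT mice were C57BL6, the mdx mice Dmdmdx-4Cv, which carry a mutation of the dystrophin gene, and the mice labelled mdxTLR4 or mTLR4 were Bl6/Bl10. The last group was read as mdx mice that also lack Toll-like receptor 4 (TLR4). The H3K27ac libraries were 2 of WT mice aged 19 and 20 weeks, 2 of mdx mice aged 21 and 22 weeks, 1 of an mdxTLR4-/- mouse aged 23 weeks, and 1 input labelled with 18 weeks. Across the series, inputs included, each library is labelled 1 week older than the one deposited before it, so they may not be the true ages of the mice. The study's methods place all strains on a C57BL/6J background, unlike the strain labels. As labelled, age and strain followed genotype and cannot be told apart from it. The authors merged the replicates and deposited 1 peak list per genotype, so variation among mice cannot be estimated and no p-value is given, and the mdxTLR4-/- list rests on 1 library.

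H3K27ac is the acetylated form of lysine 27 of histone H3. Acetyltransferases place it on nucleosomes of active promoters and enhancers, and deacetylases remove it. On the same lysine it excludes H3K27me3, the mark that Polycomb repressive complex 2 places at silenced genes. In macrophages enhancers with this mark lie at sites of the lineage factor PU.1 together with C/EBP and AP-1 proteins.

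The WT list held 14962 peaks with 266063 reads, the mdx list 11581 peaks with 186508 reads and the mdxTLR4-/- list 12204 peaks with 165505 reads. Reads outside peaks are not in the lists, so sequencing depth is unknown. No peak had fewer than 5 reads. As a check of the cells, a peak lay over the start of 8, 6 and 7 of 11 macrophage markers in WT, mdx and mdxTLR4-/- BMDM, and over 0 starts of the T and NK cell, B cell, neutrophil, fibroblast and muscle markers in any list. The marked starts in mdx included those of Spi1, Cd68, Adgre1, Lyz2 and Tyrobp.

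The gained regions with the most mdx reads show what kinds of sequence were involved. Each sequence is the central 300 bp of a region on the plus strand of GRCm38 (mm10), taken from the regions with the most mdx reads whose centre lay outside exons and outside mostly masked repeats. Capitals mark matches to short motifs described further on. The following 4 come from gained regions with an mdxTLR4-/- peak. The first pair lies in clusters of duplicated genes, Fnip2 is an intron and Gse1 is rich in CpG.
Speer4d (chr5:15631751-15632050): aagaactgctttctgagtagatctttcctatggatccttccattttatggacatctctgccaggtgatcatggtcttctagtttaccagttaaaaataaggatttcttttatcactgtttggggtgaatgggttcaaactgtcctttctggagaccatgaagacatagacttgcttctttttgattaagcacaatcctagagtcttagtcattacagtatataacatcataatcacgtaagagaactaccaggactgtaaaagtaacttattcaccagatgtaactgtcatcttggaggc
Gm17019 (chr5:15039451-15039750): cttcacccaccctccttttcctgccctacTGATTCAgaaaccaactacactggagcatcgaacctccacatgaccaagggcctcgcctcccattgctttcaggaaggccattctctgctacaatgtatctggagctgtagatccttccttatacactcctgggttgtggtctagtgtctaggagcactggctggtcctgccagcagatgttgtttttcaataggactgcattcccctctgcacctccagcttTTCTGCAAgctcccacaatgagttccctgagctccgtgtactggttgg
Fnip2 (chr3:79531551-79531850): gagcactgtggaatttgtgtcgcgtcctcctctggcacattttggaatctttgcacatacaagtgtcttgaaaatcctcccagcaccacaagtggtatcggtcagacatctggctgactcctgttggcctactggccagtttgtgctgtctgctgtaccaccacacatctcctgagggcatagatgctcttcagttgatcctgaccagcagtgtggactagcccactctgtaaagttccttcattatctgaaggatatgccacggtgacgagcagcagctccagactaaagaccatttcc
Gse1 (chr8:120487851-120488150): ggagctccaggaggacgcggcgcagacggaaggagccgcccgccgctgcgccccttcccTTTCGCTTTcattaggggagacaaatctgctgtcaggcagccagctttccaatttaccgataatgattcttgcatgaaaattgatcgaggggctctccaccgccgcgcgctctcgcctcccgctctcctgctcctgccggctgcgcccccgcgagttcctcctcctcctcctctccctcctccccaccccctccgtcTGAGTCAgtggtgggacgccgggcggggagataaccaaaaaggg
The next 3 come from gained regions without an mdxTLR4-/- peak. The window in the Stam2 intron is a perfect tandem repeat with a period of 54 bp. Over their whole regions 2.78% and 44.5% of the 50-base words of Sgms1 and Cmc2 occur more than once in the genome, against 98.0% at Stam2.
Stam2 (chr2:52697551-52697850): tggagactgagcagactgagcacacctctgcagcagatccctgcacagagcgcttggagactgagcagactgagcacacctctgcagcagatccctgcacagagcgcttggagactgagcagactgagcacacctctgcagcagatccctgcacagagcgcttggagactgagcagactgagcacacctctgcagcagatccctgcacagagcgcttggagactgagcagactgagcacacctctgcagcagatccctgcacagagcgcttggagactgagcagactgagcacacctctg
Sgms1 (chr19:32186751-32187050): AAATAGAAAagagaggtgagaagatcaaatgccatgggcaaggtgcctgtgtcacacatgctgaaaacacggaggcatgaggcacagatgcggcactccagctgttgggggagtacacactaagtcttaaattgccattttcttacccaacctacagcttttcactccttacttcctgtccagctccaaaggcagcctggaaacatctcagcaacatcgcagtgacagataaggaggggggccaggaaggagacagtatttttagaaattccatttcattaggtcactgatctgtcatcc
Cmc2 (chr8:116903451-116903750): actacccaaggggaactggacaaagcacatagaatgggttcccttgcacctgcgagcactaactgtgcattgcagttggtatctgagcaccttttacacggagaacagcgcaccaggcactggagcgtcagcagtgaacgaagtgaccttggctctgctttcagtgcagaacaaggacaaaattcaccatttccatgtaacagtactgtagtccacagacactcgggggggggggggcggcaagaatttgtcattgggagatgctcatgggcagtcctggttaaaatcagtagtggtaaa

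Gained regions were weakly marked. The median held 7 mdx reads, with quartiles of 7 and 9 and a range of 5 to 34, against a median of 13 mdx reads in the 7723 regions with both an mdx and a WT peak. A count of 7 has an exact 95% Poisson interval of 2.81 to 14.4, which covers counting error only. At least 10 mdx reads were present in 38.3% of gained regions with an mdxTLR4-/- peak, in 13.6% of those without one and in 72.7% of regions shared by mdx and WT. The share of mdx regions that lacked a WT peak fell from 68.3% at 5 to 7 mdx reads to 42.7% at 8 to 10, 14.9% at 11 to 15 and 3.47% at 16 to 25. Above 25 mdx reads, 7 of 1420 regions lacked a WT peak, or 0.493%. The same fall was present in the mirror class, where 84.2% of WT regions with 5 to 7 reads and 1.43% of those above 25 lacked an mdx peak.

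**Figure D1:**
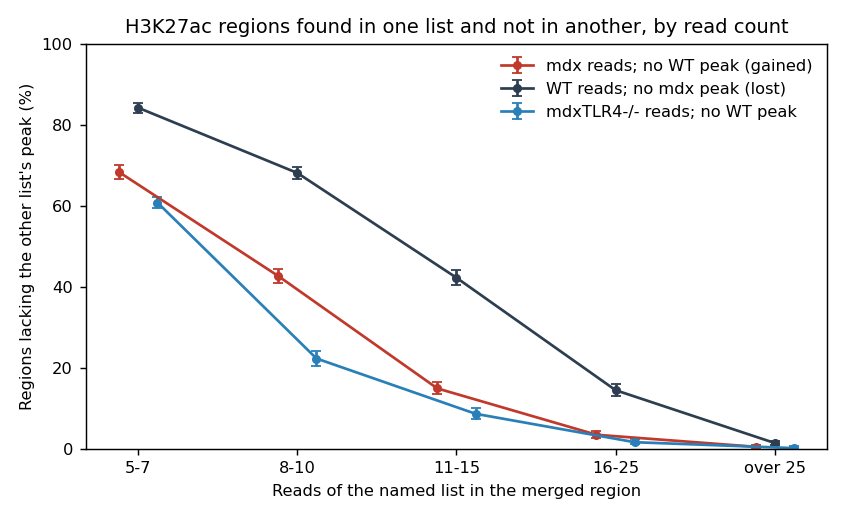
Share of merged H3K27ac regions (%, y axis) of one list that lacked a peak of another, by the reads of the first list in the region (x axis), with 95% Wilson intervals over regions. Red shows mdx regions without a WT peak (the gained regions), falling from 68.3% to 0.493%, black shows WT regions without an mdx peak, and blue shows mdxTLR4-/- regions without a WT peak.

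At the edge of the rule the values were alike. The 25 gained regions that abutted a WT peak held a median of 8 mdx reads (range 6 to 30), as did the 88 within 600 bp of one (range 5 to 30). The 87 regions where mdx and WT peaks shared a single 200 bp window, just outside the rule, also had a median of 8 mdx reads, beside 9 WT reads. A further 7 regions were joined to a WT peak only through an mdxTLR4-/- peak and were left out. Most gained regions were not at this edge, the median distance to the nearest WT peak being 44900 bp. That distance was 18800 bp for gained regions with an mdxTLR4-/- peak and 55800 bp for those without.

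An mdxTLR4-/- peak was present at 16.4% of gained regions (95% Wilson interval 15.2 to 17.6), against 82.6% (81.8 to 83.5) of regions shared by mdx and WT and 23.9% (22.9 to 24.9) of the regions lost in mdx. These intervals cover the counting of regions, not the spread between mice. The share rose with mdx reads, from 9.40% at 5 to 7 reads through 19.5% at 8 to 10 and 36.0% at 11 to 15 to 54.0% at 16 to 25 reads. Where both lists had a peak, the median ratio of mdxTLR4-/- to mdx reads per kb of peak was 0.970 (quartiles 0.661 and 1.43) in these 595 regions and 0.966 in the 6383 regions found in all 3 lists, and mdx density was the higher in 50.6% and 51.7% of them. The mdx reads outnumbered the mdxTLR4-/- reads in 65.4% of the 595 regions, in unscaled counts of lists from 2 libraries and 1. In sum, the 595 regions held 5719 mdx and 4745 mdxTLR4-/- reads.

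Among the 12 gained regions with the most mdx reads that had an mdxTLR4-/- peak and a protein-coding gene within 5 kb, 4 lay beside members or relatives of the Speer family, which encodes spermatogenesis-associated glutamate-rich proteins. The region 4537 bp from Speer4d (chr5:15628401-15635400) held 34 mdx and 14 mdxTLR4-/- reads. The region near Gm17019 (chr5:15034001-15045200) held 33 and 20, the one near Gm21190 30 and 23, and the one over the start of Speer4c 19 and 7. All 4 were mostly repeated sequence, as defined below.

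The other 8 of these regions lay at genes with broader roles. An intron of Fnip2, which encodes a folliculin-interacting protein, had 31 mdx and 5 mdxTLR4-/- reads, the most unequal pair in counts. The mdx peak there was the longer, and reads per kb of peak were 3.78 in mdx and 5 in mdxTLR4-/- BMDM. A region in the body of Gse1 (chr8:120485201-120490800) had 23 and 18 reads. Regions covered the starts of Rcor3, a corepressor of the CoREST family, with 19 and 16 reads, and of Bptf, a subunit of the NURF nucleosome remodeler, with 19 and 8. The start of the scaffold gene Ahnak had 19 reads in each list, and that of the ribosomal protein gene Rpl22 had 19 and 8 within 1400 bp. The start of Rab11a, a GTPase of recycling endosomes, had 19 and 17 reads. An intron of Lyn, a Src family kinase of myeloid and B cells, had 18 and 8 and lay 600 bp from a WT peak. A count of 19 has an exact Poisson interval of 11.4 to 29.7, which covers counting error only. The regions were picked for their mdx reads, and the unscaled lists rest on 2 mdx libraries and 1 mdxTLR4-/- library. The interval therefore cannot decide whether the counts of any pair differ.

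**Figure D2:**
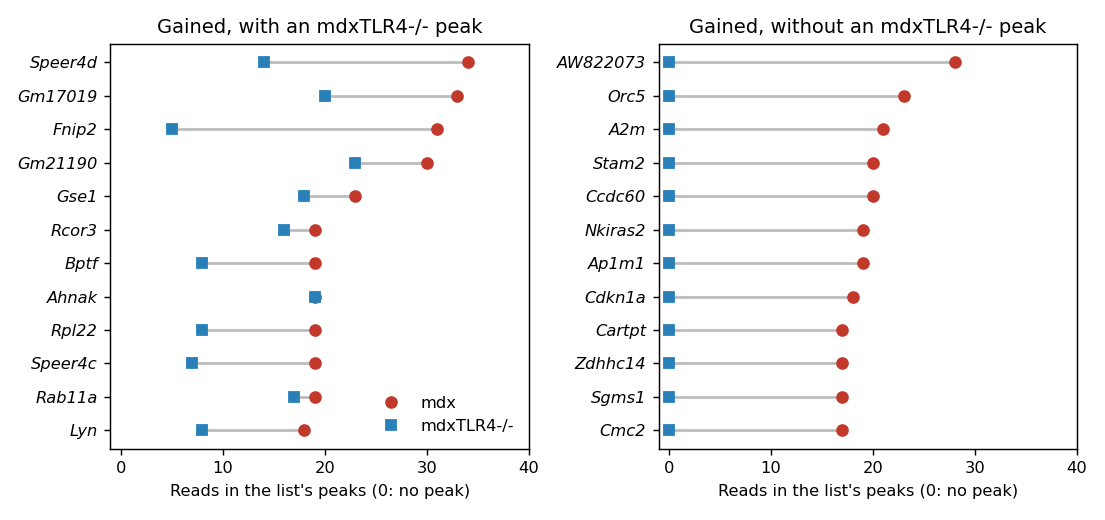
Reads (x axis) in mdx peaks (red circles) and mdxTLR4-/- peaks (blue squares) at the 12 gained regions with the most mdx reads in each class, named by the nearest protein-coding gene. On the left both lists have a peak, from 34 and 14 reads at Speer4d to 18 and 8 at Lyn, and the square hides the circle at Ahnak (19 each). On the right the squares at 0 mean that the mdxTLR4-/- list had no peak.

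In the 12 leading regions without an mdxTLR4-/- peak, mdx reads ran from 17 to 28. AW822073 on chromosome 10 had 28 reads over its start. Introns of Orc5, a subunit of the origin recognition complex, and of A2m, the protease inhibitor alpha-2-macroglobulin, had 23 and 21 reads. Stam2, an adaptor in endosomal sorting, and Ccdc60 had 20 each. Nkiras2, which restrains NF-kappaB by binding its inhibitor proteins, and Ap1m1, a clathrin adaptor subunit, had 19 each, at 800 bp from and directly beside a WT peak. The region 2674 bp from Cdkn1a, the cyclin-dependent kinase inhibitor p21, had 18. Cartpt, a neuropeptide precursor, Zdhhc14, a palmitoyltransferase, Sgms1, a sphingomyelin synthase, and Cmc2 had 17 each. Of these 12 regions 8 were mostly repeated sequence, and the central windows of Cartpt and Zdhhc14 were perfect tandem repeats with periods of 26 and 31 bp.

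Position relative to genes was not used to choose the regions, and it differed between the classes. A region that covered the start of a protein-coding gene was found for 37.8% (34 to 41.8) of gained regions with an mdxTLR4-/- peak and for 7.18% (6.32 to 8.16) of those without. The first share lay below that of regions found in all 3 lists, at 51.1% (49.9 to 52.3). The second was closer to regions found in WT alone, at 9.05% (8.31 to 9.85), and in mdxTLR4-/- alone, at 10.8% (9.81 to 12.0). Other regions found in 2 lists also had high shares, at 33.8% (31.6 to 36.1) for WT and mdxTLR4-/- and 28.1% (25.8 to 30.6) for WT and mdx. Where only the mdx peak itself had to cover the start, the shares of gained regions were 33.9% and 7.18%. With only peaks of at least 10 reads in every list, 1182 regions were gained near 1043 genes, and the shares over a gene start were 52.4% and 28.5%.

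The contrast was present within bins of mdx reads up to 25. At 5 to 7 mdx reads a gene start was covered in 32% of gained regions with an mdxTLR4-/- peak and in 5.16% of those without. At 8 to 10 reads the shares were 38.3% and 8.61%, at 11 to 15 reads 45.5% and 14.9%, and at 16 to 25 reads 44.1% (15 of 34) and 17.2% (5 of 29). Above 25 reads, where 7 regions were left, a start was covered in 0 of 6 with and 1 of 1 without an mdxTLR4-/- peak. Read the other way, 50.8% (46.1 to 55.4) of gained regions over a gene start had an mdxTLR4-/- peak, against 11.6% (10.5 to 12.8) of the other gained regions. Over 5 kb from any protein-coding gene lay 20.8% of gained regions with and 50.4% of those without an mdxTLR4-/- peak. Introns held 18.8% and 27.1%, and gene bodies with an exon 16.1% and 9.19%.

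**Figure D3:**
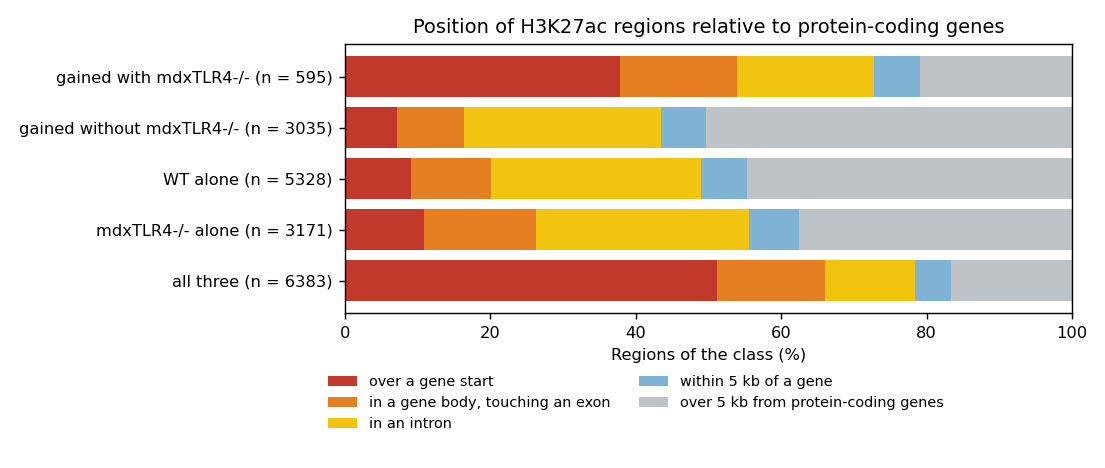
Share of regions (%, x axis) by position relative to protein-coding genes, for 5 classes of H3K27ac regions (n in brackets). Gained regions with an mdxTLR4-/- peak covered a gene start in 37.8% of cases and those without in 7.18%, beside 51.1% of regions found in all 3 lists.

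Sequence was not used to choose the regions either. To see how much of each region occurs elsewhere in the genome, 50-base words (50-mers) were taken every 10 bp and counted on both strands of the 21 chromosomes. A region was called mostly repeated when at least 50% of its words occurred more than once. This was true of 42.3% (40.7 to 44.0) of gained regions, of 48.1% (46.3 to 49.9) of those without an mdxTLR4-/- peak and of 12.9% (10.5 to 15.9) of those with one. It was true of 3.02% (2.63 to 3.47) of regions found in all 3 lists. Regions found in WT alone stood at 39.2% (37.9 to 40.5) and regions found in mdxTLR4-/- alone at 18.0% (16.7 to 19.4). Among all regions, an mdxTLR4-/- peak was present at 19.8% of the mostly repeated ones and at 65.0% of the others, while an mdx peak was present at 42.4% and 55.7%.

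Many of the gained repeats were of high copy number. In 1150 gained regions, 31.7% of all, the median word occurred at least 100 times, and 24 of the 1150 (2.09%) had an mdxTLR4-/- peak. In 219 gained regions, or 6.03%, the median copy number of the words was 1.5 to 9.5. Bowtie2, with which the authors aligned the reads, by default reports 1 place for a read that has several. Whether such reads were later removed is not given in the sources used here, so reads at these regions may come from other copies, and their part in the gained regions was not tested.

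Mostly repeated sequence was more common at low counts, at 808 of 2819 mdx regions with 5 to 7 reads and 234 of 2254 with 11 to 15. Within bins of mdx reads, mostly repeated regions still lacked a WT peak more often than the others. Between 8 and 10 mdx reads, 78.6% (75.8 to 81.3) of mostly repeated mdx regions lacked a WT peak, against 28.7% (26.8 to 30.6) of the others. Between 11 and 15 reads the shares were 59.0% (52.6 to 65.1) and 9.80% (8.58 to 11.2). From 16 reads upward they were 20.4% (30 of 147) and 1.29% (40 of 3091). Among the 20 gained regions with the most mdx reads, 14 were mostly repeated.

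Without the mostly repeated regions, 2093 gained regions were left, of which 24.7% (22.9 to 26.6) had an mdxTLR4-/- peak. The contrast in position was still present among them. A gene start was covered in 42.9% (38.7 to 47.2) of the 518 with an mdxTLR4-/- peak and in 13.1% (11.5 to 14.8) of the 1575 without. Of gained regions in mostly unrepeated sequence, 51.9% (47.1 to 56.6) of those over a gene start and 17.8% (16.0 to 19.7) of the rest had an mdxTLR4-/- peak.

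**Figure D4:**
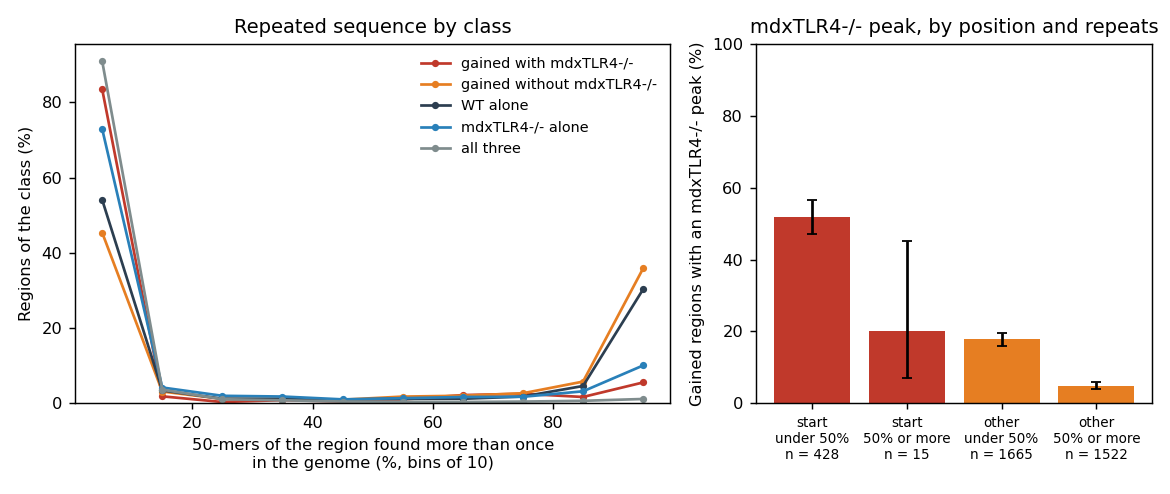
Left, share of each class (%, y axis) by the percent of its 50-mers that occur more than once in the genome (x axis, bins of 10). Right, share of gained regions with an mdxTLR4-/- peak (%, bars with 95% Wilson intervals over regions) by position over a gene start or elsewhere, and by whether under 50% or at least 50% of the 50-mers were repeated: 51.9%, 20.0%, 17.8% and 4.86% from left to right.

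Base composition differed by position and, away from starts, between the classes. Median GC content was 49.1% in gained regions with an mdxTLR4-/- peak, 42.7% in those without and 48.9% in regions found in all 3 lists. Over gene starts the medians were 53.5% and 55.3% in the gained classes and 50.8% in all 3 lists. Away from starts they were 45.8% with and 42.2% without an mdxTLR4-/- peak, and 46.8% and 43.7% without mostly repeated regions. The ratio of observed to expected CpG, which is low in most of the genome and high at CpG islands, had a median of 0.641 and 0.639 at gained regions over a gene start, with and without an mdxTLR4-/- peak, and of 0.569 at regions of all 3 lists over a start. Away from starts it was 0.226, 0.216 and 0.232.

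Short motifs were searched on both strands of 1000 bp around the centre of each region, so the search ran past the ends of shorter regions. Gained regions had a lower quartile of length of 1400 bp with and 1000 bp without an mdxTLR4-/- peak. Their shortest lengths were 400 and 200 bp. The motifs were AP-1 (TGANTCA), PU.1 (GAGGAAGT), C/EBP (TTGCNNAA), an interferon response element core (TTTCNNTTT), NF-kappaB (GGGATTTCC), ETS factors of promoters (CCGGAAGT), CRE (TGACGTCA), SP1 (GGGGCGGGG) and NRF1 (GCGCATGCG), and their matches may overlap. A match is a description of the letters and not of binding. Among regions away from gene starts and not mostly repeated, the AP-1 letters occurred in 37.5% (32.2 to 43.1) of the 296 gained regions with an mdxTLR4-/- peak, 28.3% (26 to 30.8) of the 1369 without, 35.5% (33.8 to 37.3) of regions found in all 3 lists and 32.4% of all such regions. The PU.1 letters occurred in 15.5% (11.9 to 20.1), 10.9% (9.34 to 12.6), 15.7% (14.5 to 17.1) and 13.4%. The C/EBP letters occurred in 37.5%, 36.6%, 38.8% and 37.8%. The interferon element letters occurred in 44.9% of such gained regions with and 47.6% without an mdxTLR4-/- peak. For ETS these shares were 2.36% and 1.31%, for CRE 0.676% and 1.02%, for SP1 5.41% and 3.43%, and for NRF1 0.338% and 0.365%. The NF-kappaB letters were rare, at 8 of 296 and 16 of 1369 gained regions, 2.70% (1.38 to 5.24) and 1.17% (0.721 to 1.89), against 1.14% of all such regions. Over gene starts the SP1 letters occurred in 32% (26.3 to 38.4) of gained regions with an mdxTLR4-/- peak, 22.0% (17.0 to 28.0) of those without and 24.8% of all regions there. The intervals of the gained classes overlapped for SP1 over starts. Away from starts, among regions not mostly repeated, they overlapped for every motif but AP-1.

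By chromosome, the share of regions that were gained ran from 13.6% on chromosome 19 to 18.9% on chromosome 16. Some gained regions lay close together, and whether more so than other H3K27ac regions was not tested. Groups of at least 5 gained regions no more than 50 kb apart, a criterion chosen after seeing the data, numbered 9 and held 74 regions. The largest pair lay on chromosome 5, at chr5:15461601-15716000 with 21 gained regions, 16 of them with an mdxTLR4-/- peak, and at chr5:14903401-15045200 with 17 and 8. The genes there were Speer4c, Speer4d, Speer4e, 4930572O03Rik and the predicted genes Gm21149, Gm21190, Gm21083, Gm9758, Gm10354 and Gm17019. The first cluster held 55 H3K27ac reads in 7 WT peaks, 484 reads in 36 mdx peaks and 345 reads in 31 mdxTLR4-/- peaks. The second held 41 reads in 5 peaks, 303 in 23 and 149 in 15. Single WT peaks had 7 to 10 reads in both clusters, and mdx peaks reached 30 and 33. No H3K27me3 peak of any genotype lay in either cluster.

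**Figure D5:**
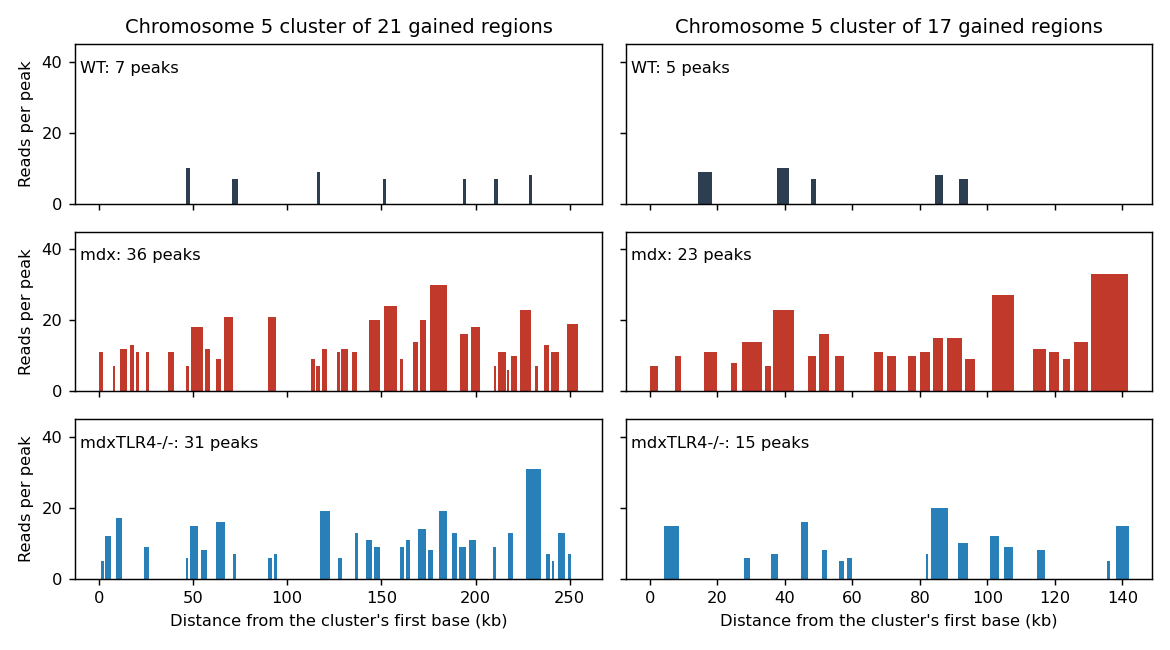
Reads per H3K27ac peak (y axis) along the 2 clusters on chromosome 5 (x axis, distance in kb from the first base of the cluster; bar width is peak length), for WT, mdx and mdxTLR4-/- BMDM. WT had 7 and 5 peaks of at most 10 reads, mdx 36 and 23, and mdxTLR4-/- 31 and 15.

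All 38 gained regions of this pair of clusters were mostly repeated, with 55.5% to 89.8% of the words repeated in the first and 56.4% to 85.8% in the second, and a median copy number of 2 to 7. Reads cannot be assigned to single copies there with certainty. The gained regions of 4 other clusters were also all mostly repeated, namely 3 on chromosome 1 between 84962801 and 85584000 around Sp110, A530032D15Rik and C130026I21Rik, and one on chromosome 8 near 4930467E23Rik. In contrast, none of the 5 gained regions at chr7:100943401-101093600, at the nucleotide receptor genes P2ry2 and P2ry6 and at Fchsd2, was mostly repeated. That locus was marked in all genotypes, with 181 WT, 152 mdx and 100 mdxTLR4-/- H3K27ac reads, and 1 of the 5 had an mdxTLR4-/- peak. Its H3K27me3 peaks held 355, 438 and 270 reads. The cluster at chr10:84060601-84180000 had no WT H3K27ac peak, and 2 of its 6 gained regions were mostly repeated. H3K27me3 peaks there held 752 WT, 609 mdx and 616 mdxTLR4-/- reads. At chr4:146479401-146596800, 3 of 5 gained regions were mostly repeated. H3K27me3 peaks there held 96 WT and 100 mdxTLR4-/- reads, and mdx had none.

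H3K27me3 is a readout that the rule did not use. A WT H3K27me3 peak touched 4.66% (4.02 to 5.39) of gained regions and 1.83% (1.55 to 2.15) of regions shared by mdx and WT. The gained share was 2.52% (1.53 to 4.12) with and 5.07% (4.35 to 5.91) without an mdxTLR4-/- peak. Regions found in WT alone or in mdxTLR4-/- alone were touched in 3.81% and 5.11% of cases. Without mostly repeated regions the share was 7.87% (6.64 to 9.31) for gained regions lacking an mdxTLR4-/- peak and 2.32% (1.33 to 4.01) for those with one. The same filter gave 4.78% for regions found in WT alone and 5.54% for those in mdxTLR4-/- alone. In these filtered gained regions an mdx H3K27me3 peak touched 8.06% without and 0.965% with an mdxTLR4-/- H3K27ac peak. In mdx BMDM an H3K27me3 peak touched 4.16% (3.56 to 4.86) of gained regions, and in mdxTLR4-/- BMDM 3.77% (3.20 to 4.44). With only H3K27ac peaks of at least 10 reads, WT H3K27me3 touched 2.88% of gained regions, 2.12% with and 3.02% without an mdxTLR4-/- peak. With peaks of at least 1 kb the shares were 2.61% and 3.95%. The H3K27me3 libraries are labelled with 12 to 17 weeks, in the same series of ages that rises by library.

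A WT H3K27me3 peak and no mdx H3K27me3 peak was found at 49 gained regions, 1.35% (1.02 to 1.78), against 0.958% (0.764 to 1.20) of regions shared by mdx and WT. Regions found in WT alone stood at 1.24% (0.975 to 1.57) and those in mdxTLR4-/- alone at 1.14% (0.821 to 1.57), both near the gained share. The reverse, H3K27me3 in mdx and not in WT, was found at 31 gained regions, 0.854%, and at 0.492% of shared ones. It was found at 0.770% of regions in WT alone and 1.51% of regions in mdxTLR4-/- alone. Of the 49, 8 had an mdxTLR4-/- H3K27ac peak and 6 covered a gene start. The region at Gse1 led them by mdx reads, with WT H3K27me3 over 800 of its 5600 bp. WT H3K27me3 covered the whole of the 1600 bp region in the Zdhhc14 intron, which is repeated sequence. The start of Smad3, the transforming growth factor beta signal transducer, had 9 H3K27ac reads in both mdx and mdxTLR4-/- BMDM, and WT H3K27me3 reached 200 of its 2600 bp. Smad3 was named after its values were seen.

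Within 5 kb of a gained region lay 2109 of 20807 protein-coding genes, or 10.1%. Of these, 574 (2.76% of all genes) were near a gained region with an mdxTLR4-/- peak, 1603 near one without and 68 near both. Regions lost in mdx lay near 4118 genes (19.8%), and 680 genes were near both a gained and a lost region. The start of 501 genes lay under a gained region, 258 with and 243 without an mdxTLR4-/- peak. Gene lists are read below against the background of 10.1%, with no test, and long or strongly acetylated genes have more room for a region.

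Macrophage identity genes had a gained region within 5 kb for 6 of 20 and a lost one for 9 of 20. Ctss, the lysosomal protease cathepsin S, had 13 mdx and 7 mdxTLR4-/- reads in a region that reached its start through the mdxTLR4-/- peak. Runx1, a transcription factor of blood cells, had 8 and 7 reads in its gene body. Itgam (integrin alpha M), Spi1 (PU.1) and Cebpb had 9, 8 and 6 mdx reads and no mdxTLR4-/- peak. The starts of Itgam, Spi1 and Runx1 carried WT peaks, so these genes were already marked in WT BMDM. An mdx peak also lay over the starts of Spi1 and Runx1, but none lay over that of Itgam. Of markers of other cells, 1 of 10 for T and NK cells, 1 of 8 for B cells and 1 of 10 for neutrophils had a gained region, and 2, 1 and 0 a lost one. Cd3d of T cells had 12 and 7 reads, while Cd79b of B cells had 8 and Mmp8 of neutrophils 10 mdx reads, none of them at a start.

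In the TLR4 and NF-kappaB pathway 6 of 33 genes had a gained region and 11 of 33 a lost one. The region over the start of Traf3, an adaptor that restrains NF-kappaB and directs TLR signals to interferon, had 15 reads in mdx and 15 in mdxTLR4-/- BMDM, and only the mdx peak reached the start itself. The start of Relb, the subunit of alternative NF-kappaB signalling, had 7 and 6. Irak3, the inhibitory kinase IRAK-M, had 3 gained regions, the strongest with 13 mdx reads in an intron and no mdxTLR4-/- peak. Tnip1, an inhibitor of NF-kappaB, had 8 mdx reads, and the kinases Irak4 and Map3k7 (TAK1) had 6 each. The starts of Irak3, Tnip1, Irak4 and Map3k7 carried WT peaks. The Map3k7 region was mostly repeated, with a median word count of 244. Tlr4 itself had no gained region, and its peaks held 52 WT, 29 mdx and 43 mdxTLR4-/- reads.

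Of AP-1 and early response genes 4 of 25 had a gained region and 4 of 25 a lost one. Dusp1, the phosphatase that switches off p38 and JNK, had 13 and 11 reads within its annotated body, 46528 bp from the annotated start. Batf had 7 and 7 reads in an intron. Egr1 and Nr4a2 had 11 and 10 mdx reads and no mdxTLR4-/- peak, and neither start had a peak in any list. None of the 37 cytokine and chemokine genes had a gained region, while 4 had a lost one. H3K27ac peaks covered 10 of their starts in WT, 6 in mdx and 7 in mdxTLR4-/- cells. Of all 20807 protein-coding genes, peaks covered 5135 starts in WT, 4415 in mdx and 4509 in mdxTLR4-/- cells. Of 29 interferon-stimulated genes 5 had a lost region and 1 a gained one, Ddx58 (RIG-I), with 5 mdx reads.

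Genes of alternative activation had a gained region for 5 of 19, none with an mdxTLR4-/- peak, and a lost one for 5 of 19. Clec10a had 9 mdx reads, Cd163, the haemoglobin scavenger receptor, 8, and Arg1 (arginase 1), Mrc1 (CD206) and Chil3 (Ym1) had 7 each. The regions at Clec10a, Cd163 and Mrc1 were mostly repeated, with 93.6%, 100% and 100% of words repeated and median word counts of 407, 523 and 6576.5. At Arg1 no word was repeated, and the region of 1200 bp (chr10:24916601-24917800) lay 9684 bp from the start over an exon. With all its peaks within 5 kb Arg1 had 18 WT, 14 mdx and 8 mdxTLR4-/- reads, and Mrc1 had 49, 47 and 31. Of the other markers assayed in the study, Nos2, Il6 and Il12a had no H3K27ac peak in any list, Tnf had 12 WT and 9 mdx reads and no mdxTLR4-/- peak, and Tgfb1 had 44, 47 and 37 reads. Nos2, Il6, Il12a, Tnf and Tgfb1 had no gained region.

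In glycolysis and the citrate cycle 3 of 33 genes had a gained region and 11 of 33 a lost one. The gained regions were led by the start of Pdk1, the kinase that inhibits pyruvate dehydrogenase, with 11 mdx reads. Pfkfb3 and Pfkp had 8 and 7 in their gene bodies, and their starts carried WT peaks. In the mevalonate and cholesterol pathway 4 of 23 had a gained region and 7 of 23 a lost one, with the start of Mvd at 10 mdx reads, Fdps at 9, Srebf2 at 7 and the sterol exporter Abcg1 at 6 mdx and 9 mdxTLR4-/- reads. Of oxidative stress genes 4 of 20 had a gained and 6 of 20 a lost region, and 3 of the 4 had one with an mdxTLR4-/- peak. Slc7a11, the cystine transporter, had 17 and 10 reads over 6400 bp near its start, and Sod2, mitochondrial superoxide dismutase, had 7 and 11. Gclm and Nqo1 had 7 and 6 mdx reads at the regions with the most reads, which had no mdxTLR4-/- peak. Of heat shock and unfolded protein response genes 4 of 30 had a gained and 9 of 30 a lost region. The gained regions at Hsp90aa1, Ppp1r15a, Pdia3 and Herpud1 held 6 to 8 mdx reads. The starts of Ppp1r15a, Pdia3 and Herpud1 lay under peaks of WT, mdx and mdxTLR4-/- BMDM.

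Among lysosomal genes 5 of 26 had a gained and 9 of 26 a lost region, beside Ctss the starts of Tfeb, the master regulator of lysosomal genes, with 11 mdx reads, and of Galns with 7. Of proteasome subunits 4 of 34 had a gained and 7 of 34 a lost region, with the starts of Psmd7 (10 and 6 reads) and Psmd3 (7 and 5) marked in mdx and mdxTLR4-/- BMDM, and with 11 and 7 mdx reads beside Psmc3 and Psmd8. Of mitotic cell cycle genes 4 of 36 had a gained and 11 of 36 a lost region. The starts of Cdk1 (8 and 8 reads) and Aurkb (6 and 5) lay in gained regions, under peaks of both lists at Aurkb and under the mdxTLR4-/- peak alone at Cdk1, and the start of E2f2 had 13 mdx reads and no mdxTLR4-/- peak. Of enzymes and readers of H3K27 5 of 24 had a gained region and 13 of 24 a lost one. Kat2b, the acetyltransferase PCAF, had 11 and 9 reads, and Jarid2, Hdac9, Brd3 and Sirt1 had 6 to 8 mdx reads without an mdxTLR4-/- peak. No fibroblast or muscle marker of 12 had a gained region, and 2 had a lost one.

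The study's own lists of pro-inflammatory, anti-inflammatory and pro-fibrotic genes had a gained region at 102 of 679, 115 of 762 and 9 of 59 genes, or 15.0%, 15.1% and 15.3%, against 10.1% of all protein-coding genes. They had a lost region at 30.3%, 31.2% and 25.4%, against 19.8% of all. Of the 56 genes named from the lists, 12 had the gained region over their own start and 6 had a mostly repeated region. The start of 18 of the 56 lay under a WT peak, so these genes were already marked in WT BMDM.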

How the data were processed

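Unstimulated BMDM were profiled by native ChIP-seq after micrococcal nuclease digestion. The authors mapped reads to mm10 with Bowtie2 at default settings, merged replicates and called peaks with SICER (window 200 bp, gap 600 bp, FDR below 0.01), settings given for H3K27me3 with the same general procedure stated for H3K27ac. The submitters' processing notes name CASAVA 1.8, cutadapt 1.15, Bowtie2 2.3.4 and SICER 2.0. The deposited values are a count of ChIP reads per peak, which the authors did not scale for depth or length and from which no input was subtracted. Removal of duplicate or multiply mapping reads is not given in the sources used here. The depth of each library is unknown, so counts were not scaled and weak peaks near 5 reads limit what absence means.

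Peaks of the 3 H3K27ac lists sharing at least 1 bp on chromosomes 1 to 19 were merged, and the 3 H3K27me3 lists were laid over them. Genes were those of GENCODE vM21, 20807 of them protein-coding, and sequence was RefSeq GRCm38.p6, the same build. No peak ran past a chromosome end. The labels' groups were used, and with 1 list per genotype no test was made. Wilson intervals at 95% are over regions. The members and lists were chosen with earlier results of these data known. Named genes were those nearest to the 12 regions with the most mdx reads in each class, at most 5 per list (Cebpb and Map3k7 are named beside them), and the markers assayed in the study, and the list names came from textbook pathways or from the study's gene lists. Repeated 50-mers and clusters were added after seeing the data. Alternatives were peaks of at least 10 reads or 1 kb, and peaks of at least 1.5 times the 1st percentile of read density in their list. Others were equal list lengths, merging across 600 bp, 50% coverage, all gene starts, distance to the start and 50% of a region under H3K27me3. The remaining alternatives were exclusion of repeats, exclusion of the chromosome 5 clusters, and starts covered by the mdx peak itself. The merging and overlap steps were tested on simulated lists with known patterns. Python 3.11.15, numpy 2.4.6, pandas 2.3.3, scipy 1.17.1 and matplotlib 3.10.9 were used. Input libraries, which have no peak lists, were not analysed here. A sequence and a few genes that the rules select are not reported here.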

Additional observations from a re-analysis of the deposited data

Results flagged for a closer look

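The sex chromosomes were outside the regions described, and they also held H3K27ac regions with an mdx peak and no WT peak. Chromosome X had 172 among 718 regions, or 24.0%, with a median of 8 mdx reads, and 10 of them had an mdxTLR4-/- peak. Chromosome Y had 140 among 404 regions, or 34.7%, with a median of 7 mdx reads, and 2 of them had an mdxTLR4-/- peak. The share on chromosomes 1 to 19 was 16.9%. Whether these shares differ was not tested.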

How the results depend on the processing

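No paired analysis was possible because the replicates were merged into 1 peak list per genotype before deposit, and for the same reason no replicate could be left out. Over 60 alternatives of 7 results, 37 stayed close to the value reported and 23 moved. Reversal was defined only for the ratio of gained to lost regions, as a crossing of 1, and 0 alternatives crossed it. The other results could not reverse by this definition. With peaks of at least 10 reads, 1182 regions were gained near 1043 genes, with a median of 11 mdx reads, 32.3% over a gene start and 2.88% under WT H3K27me3. The ratio of gained to lost regions was then 0.350, against 0.518 in the main setting, which still counted as close. With peaks of at least 1 kb the median was 8 reads, the start share 16.0%, the H3K27me3 share 3.71% and the mdxTLR4-/- share 17.8%. With 50% coverage required, the median was 8 reads, the start share 17.6% and the mdxTLR4-/- share 17.8%. With the same number of peaks (11581) in each list, the ratio of gained to lost regions was 0.990, the start share 14.6% and the mdxTLR4-/- share 19.1%, where equal length by itself brings the ratio near 1. Without mostly repeated regions, an alternative chosen after seeing the data, 2093 regions were gained, 24.7% with an mdxTLR4-/- peak, 20.4% over a gene start and 6.5% under WT H3K27me3. The start share was 15.6% with a higher density and 14.3% with the starts of all annotated genes. WT H3K27me3 over at least 50% of the region gave 3.55%, and distance to the gene start gave 941 genes. Without the pair of chromosome 5 clusters, also chosen after seeing the data, 3592 regions were gained and 15.9% had an mdxTLR4-/- peak. The start share of gained regions was higher with than without an mdxTLR4-/- peak in all 9 settings that gave both, at 37.8% to 52.4% against 6.98% to 28.5%. Depth and input limit what absence of a peak means at these read counts.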
